A study of Drosophila melanogaster with 9 samples.

Results

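The 10 genes described here encode core parts of the Toll and Imd pathways, the 2 main signalling routes of humoral immunity in Drosophila melanogaster. They were taken by gene name (Tl, spz, nec, dl, Dif, cact, Rel, imd, key and pirk) from the 14479 genes and repeat features in the deposited tables, and all 10 were found and passed the filter on low counts in each comparison. RNA had been sequenced, with paired ends, from pools of thoraces of female flies on adult day 20, in a study concerned with retrotransposons and aging. All flies had the W1118 (BL5905) background and expressed a short hairpin RNA under Act5C, a promoter active throughout the body. The 3 libraries labelled 412KD came from flies with a hairpin against the retrotransposon 412, the 3 labelled RooKD from flies with a hairpin against the retrotransposon roo, and the 3 labelled scramble from flies with a scrambled hairpin. How many flies made a pool, and whether the pools were separate cultures, the labels leave unsaid. The p-values therefore cover the spread among 3 libraries a group, part or all of which may be technical.

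In the Toll pathway, fungal or bacterial products set off a protease cascade in the hemolymph that cleaves the cytokine Spätzle, which then binds the Toll receptor. Inside the cell this leads to loss of the inhibitor Cactus and frees the NF-κB factors Dorsal and Dif. In the Imd pathway, peptidoglycan recognition proteins signal through the adaptor Imd to an IκB kinase complex and to the NF-κB factor Relish. Both pathways switch on antimicrobial peptide genes in the fat body, the fly's counterpart of the liver, and Toll signalling also sets the dorsoventral axis of the embryo from transcripts supplied by the mother.

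Libraries held 17590599 to 26177587 reads. Reads on the targeted elements were not lower than scramble in the libraries named for them. The 412 features stood at 0.699 ± 0.199 CPM (reads scaled to a common library size; SD, n = 3) in 412KD, 0.645 ± 0.160 in scramble and, lowest, 0.398 ± 0.050 in RooKD. These rest on 51, 42 and 24 reads in all over the 3 libraries of each group, too few to show whether 412 was lowered. The roo features stood at 11.2 ± 2.31 CPM in RooKD, 10.3 ± 2.40 in scramble and 10.1 ± 1.54 in 412KD, so every direction below is between libraries as labelled. A pair of libraries, the 3rd replicate of 412KD and the 1st of RooKD, lay away from the rest. On a principal component with 40.0% of the variance they lay at −61.2 and −49.8, and the other libraries lay between −15.4 and 28.2. Over 14 ovary and germline markers, the median log2 difference from the scramble mean was 5.15 and 5.19 in these libraries and 3.03 in 412KD replicate 1, against −0.30 to 0.30 in the other 6 libraries. Of these markers, grk (−0.04 and −0.13) and bgcn (−0.17 and −0.83) were not higher in 412KD replicate 3 and RooKD replicate 1. Of the flight muscle markers that define a thorax, Mhc (193 to 320 FPKM, fragments per kilobase of gene, scaled to the library) and Act88F (142 to 346 FPKM) were present, but flightin, fln, was at 0.585 to 1.87 FPKM. The yolk gene Yp3, listed here as a fat body marker, was at 9701 to 23909 FPKM. Of the other fat body markers, Yp1, Yp2 and apolpp were also high (medians 4641, 14794 and 595 FPKM). Fbp1, Fbp2 and Lsp2 were low (medians 0.611, 0.999 and 8.94 FPKM).

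By FPKM, the deposited measure that allows genes of different length to be compared, the 10 components covered a wide range of levels. The serpin gene nec was highest, with a mean of 221 FPKM over the 9 libraries (SD 56.5), followed by Rel (139.5, SD 32.0), key (81.5, SD 13.4), cact (71.0, SD 5.51), dl (34.7, SD 5.82), Dif (22.0, SD 1.52), spz (20.3, SD 3.58), pirk (17.4, SD 4.75), imd (13.6, SD 1.58) and Tl (12.2, SD 1.54). Among 13597 genes, 97.3% had a lower mean than nec and 64.5% a lower mean than Tl. In this order only cact and dl, and dl and Dif, had ranges that did not overlap between neighbours. Dif was above spz in 5 of 9 libraries, and nec above Rel in 8 of 9. Among the 10, the transcripts of the receptor gene Tl thus had the lowest mean, and those for the extracellular inhibitor Necrotic and for Relish the highest.

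**Figure D1:**
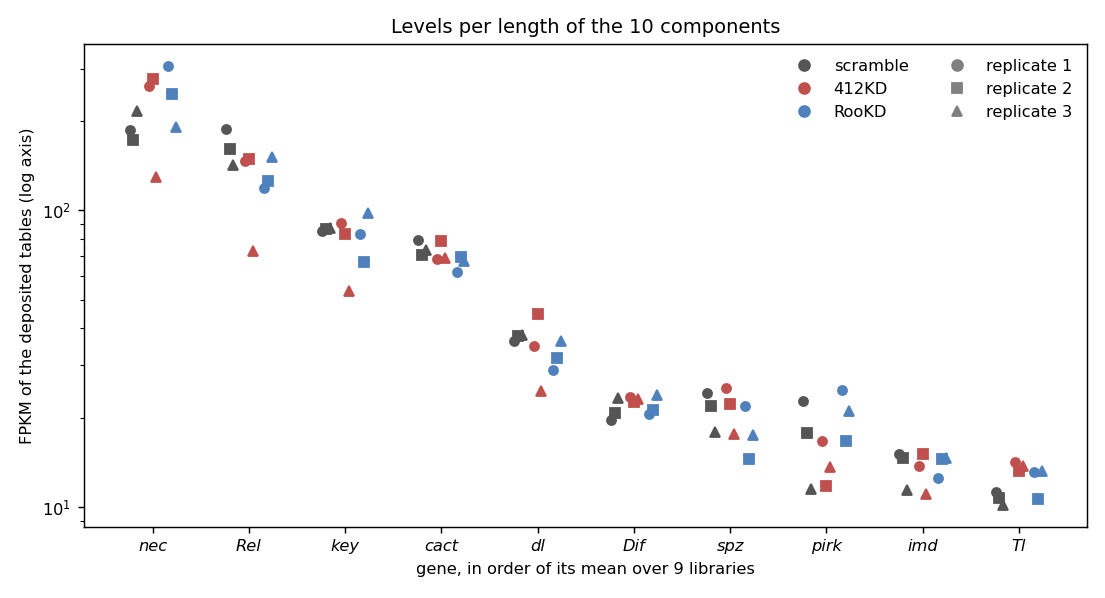
FPKM of the deposited tables on a log axis for the 10 components, in order of their mean over 9 libraries; each point is 1 library, with the group as colour and the replicate as shape. The components run from nec at 130 to 306 FPKM down to Tl at 10.2 to 14.2 FPKM, and 412KD replicate 3 is the lowest point for nec, Rel, key and dl.

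The members also differed in how steady they were. Over the 9 libraries the SD of log2 CPM was 0.09 for Dif and 0.12 for cact, and only 2.94% and 8.18% of 10599 genes varied less. At the other end were pirk (SD 0.41), nec (0.40) and Rel (0.39), with 73.2%, 72.0% and 72.0% of genes varying less. The median SD of log2 CPM was 0.17 over 10 intracellular Toll genes and 0.15 over 17 intracellular Imd genes, against 0.26 for the 10 components and 0.97 for 20 antimicrobial effector genes.

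In the comparison of 412KD with scramble, which asks whether the flies given the 412 hairpin differ, edgeR called none of the 10 components at an adjusted p of 0.05, where it called 0.0192% of 10431 genes. DESeq2 also called none, where it called 2.97% of the genes to which it gave an adjusted p. Unadjusted edgeR p-values were under 0.05 for 1 component, Tl, and for 11.2% of all genes. Tl was also the only component whose 412KD and scramble libraries did not overlap, against 8.7% of all genes in that direction and 17.7% in either, and neither count is far from the background. The median log2 fold change of the components was −0.06, and that of all genes tested was 0.01.

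In the comparison of RooKD with scramble, the same question for the roo hairpin, edgeR again called none of the 10, where it called 0.107% of 10305 genes. DESeq2 called none either, against 3.51% of the genes with an adjusted p, and no component had an unadjusted edgeR p under 0.05, against 12.7% of genes. For 2 components, dl and cact, every RooKD library was below every scramble library, which held for 9% of all genes, and for 18.7% with either direction counted. The median log2 fold change was −0.03 for the components and 0.02 for all genes. Both comparisons use the same scramble libraries. Set directly against each other, 412KD and RooKD gave no call among the 10 by edgeR or DESeq2, where edgeR called 0.0943% of 10599 genes and DESeq2 0.625%. The unadjusted p was under 0.05 for none of the components and 6.02% of genes, and only cact did not overlap, being higher in 412KD, against 4.23% of genes in that direction and 9.09% in either. Log2 fold changes were above 0 for 4, 5 and 5 of the 10 components in the 3 comparisons, against 51%, 53% and 50.7% of all genes. Without 412KD replicate 3 and RooKD replicate 1 edgeR again called none of the components, where it called 0.991%, 0.422% and 0.659% of all genes.

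**Figure D2:**
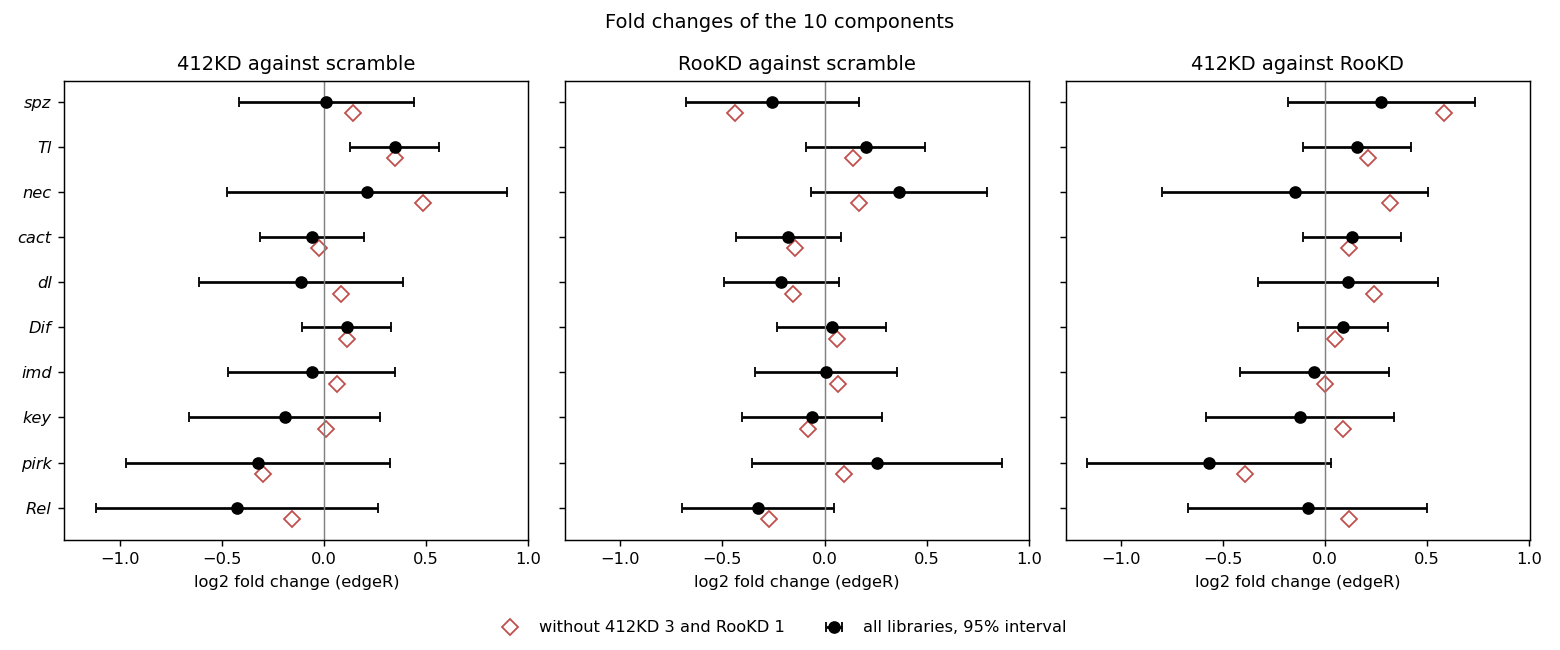
edgeR log2 fold change of each component in the 3 comparisons (filled points, bars are 95% intervals over all libraries) and the same value without 412KD replicate 3 and RooKD replicate 1 (open diamonds). Every interval holds 0 except that of Tl in 412KD against scramble, 0.13 to 0.56, and the diamond of nec moves from 0.21 to 0.49 in that comparison.

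The ligand of the Toll pathway is encoded by spz (FBgn0003495, dm6 3R, 27064990 to 27070070, minus strand). Its level was 56.1, 49.7 and 40.2 CPM in scramble replicates 1 to 3, 57.5, 50.1 and 39.4 CPM in 412KD, and 50.3, 32.2 and 38.9 CPM in RooKD. The scramble and 412KD values covered almost the same range, while RooKD replicates 2 and 3 were below all scramble libraries and RooKD replicate 1 lay among them. The log2 fold change was 0.01 ± 0.18 (SE, 95% interval −0.42 to 0.44, edgeR adjusted p = 0.985) in 412KD and −0.26 ± 0.18 (−0.68 to 0.17, edgeR adjusted p = 0.588) in RooKD. Without RooKD replicate 1 the latter was −0.44 ± 0.17 (edgeR adjusted p = 0.262).

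Tl encodes the receptor itself (FBgn0262473, 3R, 26799041 to 26842403, plus strand). It stood at 57.1, 53.5 and 50.2 CPM in scramble, 71.0, 65.7 and 67.6 CPM in 412KD, and 66.5, 51.9 and 64.9 CPM in RooKD. All 412KD libraries were above all scramble libraries, and 2 of the 3 RooKD libraries were too. In 412KD the log2 fold change was 0.35 ± 0.09 (SE, 95% interval 0.13 to 0.56), or 1.27-fold (edgeR adjusted p = 0.264). Its unadjusted p ranked 273 among 10431 genes. The adjusted p was 0.0793 by DESeq2 and 0.0795 in the authors' deposited table. The difference therefore did not pass the threshold by either tool, although it was 0.30 to 0.39 with each library left out in turn. In RooKD the log2 fold change was 0.20 ± 0.13 (edgeR adjusted p = 0.534), and between 412KD and RooKD it was 0.16 ± 0.12 (edgeR adjusted p = 0.981), so a difference between the hairpins was not shown. The reference annotation places a roo fragment of 428 bases, roo{}1429, on the other strand between exons of Tl (3R, 26810608 to 26811035). Whether these flies carry it was not examined.

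The serpin Necrotic, which restrains the protease branch that activates Toll after fungal infection, is encoded by nec (FBgn0002930, 2R, 7156477 to 7158241, minus strand). It reached 298, 271 and 335 CPM in scramble, 413, 431 and 201 CPM in 412KD, and 487, 378 and 293 CPM in RooKD. The 412KD libraries lay on both sides of scramble, with replicates 1 and 2 above and replicate 3 below every scramble library. In 412KD the log2 fold change was 0.21 ± 0.29 (95% interval −0.48 to 0.90, edgeR adjusted p = 0.808), and with 1 library left out it ran from 0.027 without replicate 2 to 0.49 ± 0.12 without replicate 3 (edgeR adjusted p = 0.976 and 0.149). DESeq2 without that library, a fit added after the data had been seen, called nec (0.49 ± 0.14, adjusted p = 0.0166), the only call among the components in any fit run, where that fit called 4.91% of genes with an adjusted p. In RooKD the log2 fold change was 0.37 ± 0.19 (−0.07 to 0.80, edgeR adjusted p = 0.459), and 0.17 ± 0.17 without RooKD replicate 1.

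The IκB protein Cactus, which holds Dorsal and Dif in the cytoplasm and is itself a known target gene of Toll, is encoded by cact (FBgn0000250, 2L, 16313036 to 16326207, minus strand). Its level was 257, 227 and 232 CPM in scramble, 219, 250 and 218 CPM in 412KD, and 200.4, 216 and 212 CPM in RooKD. RooKD was below scramble in every library, by a small margin, and below 412KD as well. The log2 fold change was −0.06 ± 0.11 (95% interval −0.31 to 0.19, edgeR adjusted p = 0.857) in 412KD and −0.18 ± 0.11 (−0.43 to 0.08, edgeR adjusted p = 0.536) in RooKD. In folds, the RooKD interval runs from 0.740 to 1.06.

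Dorsal and Dif, related NF-κB factors, are encoded on 2L by neighbouring genes on the same strand, 3669 bases apart by the table's coordinates. The gene dl (FBgn0260632, 17436830 to 17450364) had 228, 233 and 231 CPM in scramble, 216, 275 and 149 CPM in 412KD, and 181, 191 and 221 CPM in RooKD. Scramble was tight, all RooKD libraries were below it, and 412KD lay on both sides. The log2 fold change of dl was −0.11 ± 0.21 (95% interval −0.61 to 0.39, edgeR adjusted p = 0.861) in 412KD, where it turned to 0.09 ± 0.13 without replicate 3, and −0.21 ± 0.12 (−0.49 to 0.07, edgeR adjusted p = 0.499) in RooKD. Dif (FBgn0011274, 17413248 to 17433161), the factor used in adult immunity, had 109, 114 and 126 CPM in scramble, 129, 123 and 125 CPM in 412KD, and 114, 113 and 128 CPM in RooKD. The groups of Dif overlapped. Its log2 fold changes, with their 95% intervals, were 0.11 (−0.11 to 0.33) in 412KD and 0.04 (−0.23 to 0.30) in RooKD (edgeR adjusted p = 0.674 and 0.920).

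The ratio of dl to Dif on the FPKM scale was 1.85, 1.81 and 1.63 in scramble, 1.48, 1.98 and 1.06 in 412KD, and 1.41, 1.49 and 1.53 in RooKD. All RooKD ratios were below all scramble ratios (1.48 ± 0.06 against 1.76 ± 0.12, SD, n = 3), and an exact two-sided permutation test gave p = 0.1, the smallest that 3 against 3 libraries allow. For 412KD the ratio was 1.51 ± 0.46 (exact permutation p = 0.5). These are 2 tests of a ratio chosen after the values had been seen. For groups that separate, the p follows from the separation and adds nothing to it. How many other gene ratios separate was not examined.

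**Figure D3:**
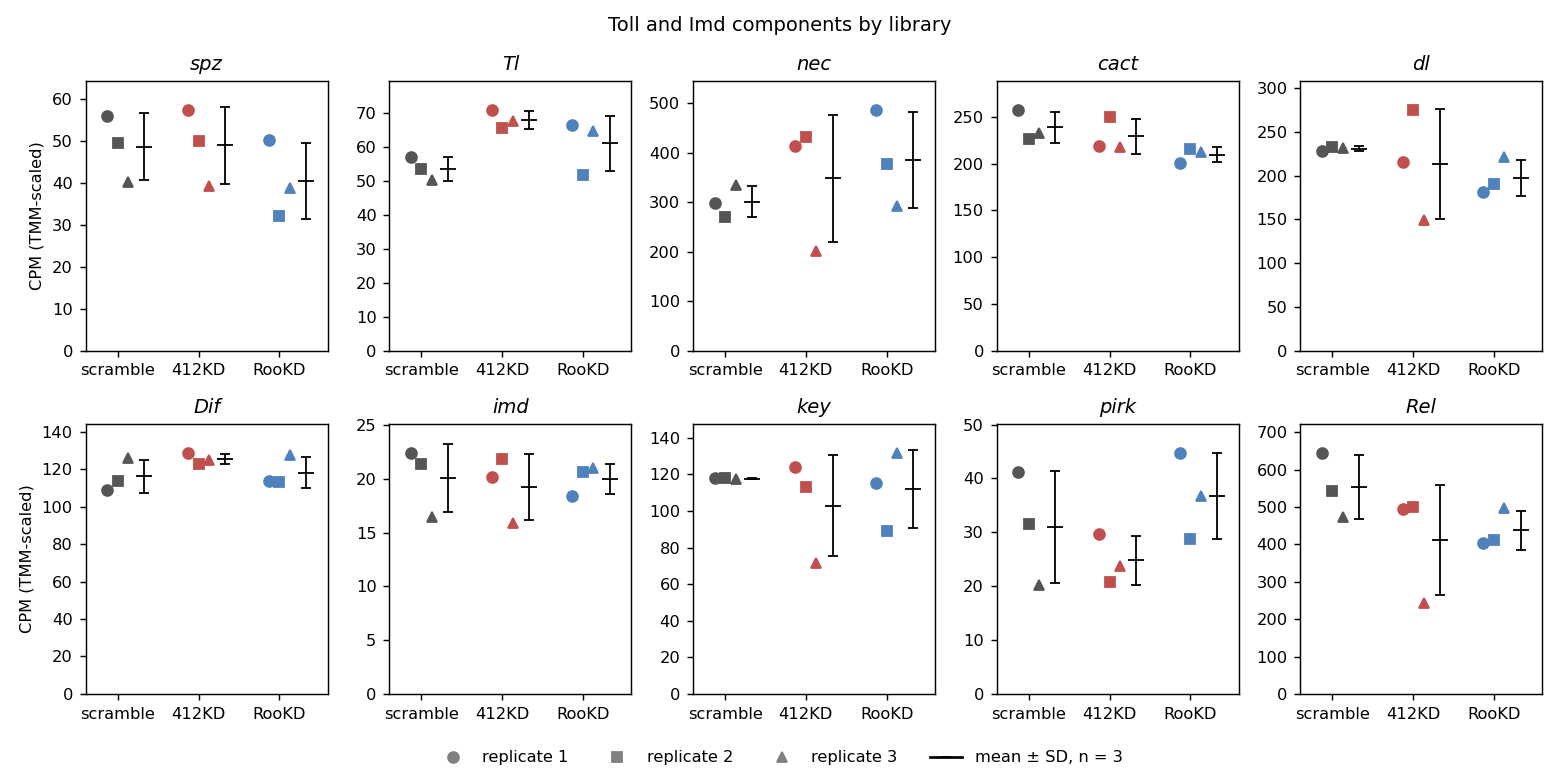
CPM scaled by TMM library sizes over all 9 libraries, 1 panel per component, with each axis from 0; shapes are replicates and the black mark is the mean ± SD (n = 3). Scramble libraries of dl (228 to 233 CPM) and key (117 to 118 CPM) sit close together, and the triangle of 412KD, replicate 3, is the lowest of all for Rel, key, dl and nec.

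The adaptor of the Imd pathway, a death domain protein, is encoded by imd (FBgn0013983, 2R, 18409796 to 18413599, minus strand). It was at 22.4, 21.4 and 16.5 CPM in scramble, 20.2, 21.8 and 15.9 CPM in 412KD, and 18.4, 20.6 and 21.0 CPM in RooKD. The 3 groups overlapped throughout. Log2 fold changes were −0.06 ± 0.17 (95% interval −0.47 to 0.35, edgeR adjusted p = 0.916) in 412KD and 0.01 ± 0.15 (−0.34 to 0.36, edgeR adjusted p = 0.987) in RooKD.

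Kenny, the regulatory subunit of the IκB kinase complex that acts on Relish, is encoded by key (FBgn0041205, 2R, 24785514 to 24787411, minus strand). Its level was nearly the same in the scramble libraries, at 118, 118 and 117 CPM, and ranged more widely in 412KD (124, 113 and 71.8 CPM) and RooKD (115, 89.3 and 132 CPM). Only 412KD replicate 3 and RooKD replicate 2 were well below scramble. The log2 fold change was −0.19 ± 0.20 (95% interval −0.66 to 0.28, edgeR adjusted p = 0.742) in 412KD and 0.01 ± 0.09 without replicate 3. In RooKD it was −0.06 ± 0.15 (−0.40 to 0.28, edgeR adjusted p = 0.893).

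Pirk, an inhibitor that removes the receptor PGRP-LC from signalling and is itself induced by the Imd pathway, is encoded by pirk (FBgn0034647, 2R, 21660967 to 21662995, minus strand). It had 41.1, 31.6 and 20.2 CPM in scramble, 29.7, 20.8 and 23.8 CPM in 412KD, and 44.7, 28.8 and 36.8 CPM in RooKD. The scramble libraries alone held the lowest value of all 9, in replicate 3, and the second highest, in replicate 1, so the groups overlapped. The log2 fold change was −0.32 ± 0.27 (95% interval −0.97 to 0.32, edgeR adjusted p = 0.683) in 412KD and 0.26 ± 0.26 (−0.36 to 0.87, edgeR adjusted p = 0.713) in RooKD. With scramble replicate 1 or 3 left out these became −0.066 or −0.55 in 412KD, and 0.50 or 0.030 in RooKD. Between 412KD and RooKD it was −0.57 ± 0.26 (−1.17 to 0.03, edgeR adjusted p = 0.865), the largest size among the components in that comparison, and −0.39 ± 0.32 without 412KD replicate 3 and RooKD replicate 1.

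Relish, the NF-κB factor of the Imd pathway, is encoded by Rel (FBgn0014018, 3R, 9044183 to 9047977, minus strand). It was at 644, 543 and 474 CPM in scramble, 495, 499 and 242 CPM in 412KD, and 404, 411 and 498 CPM in RooKD. 412KD replicate 3 and RooKD replicates 1 and 2 were below every scramble library, and the other 3 hairpin libraries lay within the scramble range. The log2 fold change was −0.42 ± 0.29 (95% interval −1.12 to 0.27, edgeR adjusted p = 0.612) in 412KD and −0.33 ± 0.16 (−0.70 to 0.05, edgeR adjusted p = 0.445) in RooKD. Without 412KD replicate 3 the former was −0.16 ± 0.14, so that library held much of its size.

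The library 412KD replicate 3 was below the scramble mean for 8 of the 10 components, as was RooKD replicate 2, and scramble replicate 3 was below it for 7. In 412KD replicate 3 the median over the components was −0.32, against −0.10 in RooKD replicate 2 and −0.06 in scramble replicate 3. The lowest log2 difference in 412KD replicate 3 was −1.18 for Rel, followed by −0.71 for key, −0.63 for dl and −0.58 for nec. Tl (0.34) and Dif (0.11) were above the scramble mean. RooKD replicate 1, which had germline markers at the same height, differed from it: Rel stood at −0.44, key at −0.03, dl at −0.35 and nec at 0.70, and pirk was at 0.59. In 412KD replicate 3 the median of 20 antimicrobial effector genes was −1.99, against −0.46 in RooKD replicate 1 and −0.61 to 0.49 in the other libraries. Of 7 fat body markers 5 were below the scramble mean in 412KD replicate 3, with a median of −0.64 there and −0.27 to 0.56 elsewhere. Their summed level was 42641 CPM in that library, 40652 to 68488 CPM in scramble, 62502 and 74375 CPM in the other 412KD libraries and 80546 to 90350 CPM in RooKD. In 412KD replicate 3 this sum held 7078, 10718 and 18619 CPM of the yolk genes Yp1, Yp2 and Yp3, so it mainly follows those genes. Hemocyte markers, which cover the blood cells, had a median of −0.16 in 412KD replicate 3 and −0.33 to 0.33 elsewhere. In 412KD replicate 3 they went both ways, with NimC1 at −1.58, eater at −0.95 and He at −0.58, but PPO1 at 1.78 and PPO2 at 0.83. NimC1 was below every scramble library (156 to 209 CPM) in all 412KD libraries (61.9 to 114 CPM; DESeq2 adjusted p = 0.0120, edgeR adjusted p = 0.270). Gut markers were high in the whole 412KD group, with medians of 1.47 in replicate 3 and 1.38 and 0.91 in the other 412KD libraries. Their medians were 0.27 to 0.81 in RooKD and −0.45 to 0.23 in scramble. The part of these cell types in the component levels was not tested. In such bulk RNA, fewer cells of a type and less RNA per cell cannot be told apart.

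**Figure D4:**
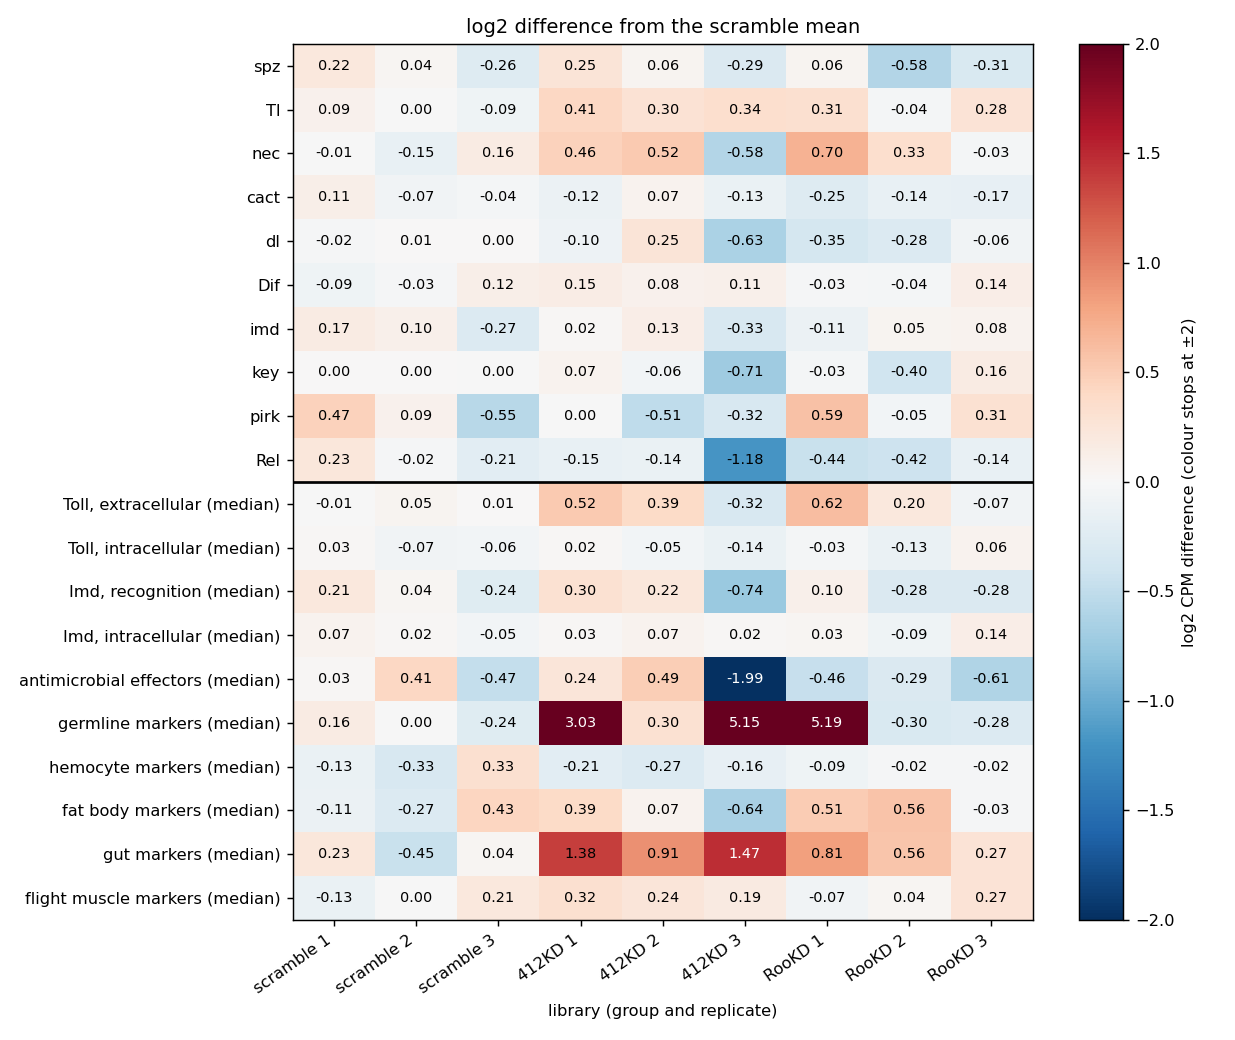
log2 CPM difference of each library from the scramble mean, with components in the upper rows and the median of each gene list in the lower rows; red is higher, blue is lower and the colour stops at ±2. 412KD replicate 3 is blue for Rel (−1.18) and for the antimicrobial effectors (−1.99) and red for germline markers (5.15), while RooKD replicate 1 shares the germline value (5.19) but has nec at 0.70.

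Of the 45 pairs of components, none had log2 CPM values that were correlated over the 9 libraries after adjustment over the pairs. The lowest exact p for Pearson's r was that of dl with Rel (r = 0.84, exact p = 0.00697, adjusted p = 0.185, Spearman rho = 0.80, exact p = 0.0138, adjusted p = 0.311). Rel with imd followed (r = 0.77, exact p = 0.00988, adjusted p = 0.185) and had the lowest exact p for Spearman's rho (rho = 0.90, exact p = 0.00203, adjusted p = 0.0913). Rel with key came next (r = 0.85, exact p = 0.0123, adjusted p = 0.185, rho = 0.60, exact p = 0.0968, adjusted p = 0.726). Without the 2 libraries farthest from the median of the first gene, r was 0.80 for dl with Rel, 0.38 for Rel with imd and 0.61 for Rel with key. Without 412KD replicate 3 and RooKD replicate 1 it was 0.41, 0.44 and 0.56, so these values rest in part on those libraries.

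By Pearson r of log2 CPM over the 9 libraries, the genes most like pirk among 8999 candidates were CG10086 (0.94), sktl (0.92) and Pvf1 (0.90). For nec they were CG3505 (0.99), Elal (0.98) and CG7016 (0.98), and for Rel they were Npc1a (0.97), Sbf (0.97) and CG4393 (0.97). These describe likeness only, since all genes share the same libraries and the library 412KD replicate 3 stands apart.

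Among 14 tested genes that act outside the cell upstream of Toll, 11 had a log2 fold change above 0 in 412KD, with a median of 0.19, and 10 of 14 in RooKD, with a median of 0.32. The medians were 0.37 in 412KD without replicate 3 and 0.13 in RooKD without replicate 1. In that 412KD fit replicate 1, with a germline median of 3.03, remained. With all libraries edgeR and DESeq2 called none of the 14 genes in either comparison. SPE, the protease that cleaves Spätzle into its active form, was at 160, 156 and 204 CPM in scramble, 365, 319 and 145 CPM in 412KD, and 343, 232 and 148 CPM in RooKD. In 412KD its level was above scramble in replicates 1 and 2 and below it in replicate 3. Without 412KD replicate 3 edgeR called it (log2 fold change 0.98 ± 0.15, adjusted p = 0.0430), against an adjusted p of 0.505 with all libraries. SPE was named after its values had been seen.

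Inside the cell, 10 further Toll genes, such as the adaptor gene Myd88 and the kinase gene pll, had a median log2 fold change of −0.05 in 412KD and 0.04 in RooKD. For pll the level was 27.0, 25.7 and 24.1 CPM in scramble. It was 23.1, 21.3 and 20.6 CPM in 412KD and 21.3, 18.9 and 19.4 CPM in RooKD. Every library of both hairpins was thus below every scramble library. The log2 fold change of −0.35 ± 0.11 in RooKD did not pass (edgeR adjusted p = 0.267). Of these 10 genes, 3 did not overlap scramble in 412KD and 5 in RooKD, against 17.7% and 18.7% of all genes. The 17 intracellular Imd genes had medians of −0.01 and 0.03. No gene of these lists was called by edgeR or DESeq2, and none of 7 other Toll receptor and Spätzle family genes was.

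Among the 9 recognition, regulatory and peptidoglycan-degrading PGRP genes of the Imd pathway, edgeR called PGRP-SC1a in 412KD (log2 fold change 4.66 ± 0.33, adjusted p = 0.0202), a gene with a near-identical copy, and DESeq2 called the same gene there and PGRP-SC2 in RooKD (0.90 ± 0.26 in edgeR, DESeq2 adjusted p = 0.0218, edgeR adjusted p = 0.237). Both encode amidases that break down peptidoglycan. PGRP-SC1a was at 3.67 to 4.36 CPM in 412KD, 0.0928 to 0.197 CPM in scramble, and 9.45, 0.0509 and 0.0592 CPM in RooKD. RooKD replicate 1 was thus above every other library. RooKD replicates 2 and 3 and all scramble libraries were at 0.197 CPM or less, too low to put them in order. The size of each fold change of PGRP-SC1a rests on such low values and is uncertain. Without 412KD replicate 3 edgeR also called PGRP-SC2 in 412KD (log2 fold change 2.12 ± 0.20, adjusted p = 0.00787), against 1.67 ± 0.61 (edgeR adjusted p = 0.401) with all libraries. Its log2 fold change in RooKD was 0.60 without RooKD replicate 1 (edgeR adjusted p = 0.216). Between 412KD and RooKD without both libraries edgeR called PGRP-SC1a (6.04 ± 0.57, adjusted p = 0.00252), PGRP-SC1b (3.66 ± 0.54, adjusted p = 0.0308) and PGRP-SC2 (1.53 ± 0.21, adjusted p = 0.0219), none of which it called with all libraries. The libraries left out went the other way. PGRP-SC1b was at 13.7 CPM in RooKD replicate 1, above every 412KD library (9.53, 12.2 and 4.97 CPM). PGRP-SC2 was at 96.2 CPM in 412KD replicate 3, below every RooKD library (306, 169 and 187 CPM).

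Of the 20 antimicrobial effector genes that Toll and Imd control, edgeR called none in either comparison with all libraries. Without 412KD replicate 3 it called AttA (log2 fold change 3.25 ± 0.28, edgeR adjusted p = 0.00773) and the bomanin gene BomS3 (0.81 ± 0.10, edgeR adjusted p = 0.0182) in 412KD, and without RooKD replicate 1 it called AttA in RooKD (2.32 ± 0.24, edgeR adjusted p = 0.0230). The library left out of the RooKD fit had AttA at 3.54 CPM, within the scramble range of 3.18 to 5.80 CPM. 412KD replicate 3 had AttA at 7.07 CPM, above that range. It had BomS3 at 97.4 CPM, below every scramble library (124 to 140 CPM). With all libraries DESeq2 called the attacin gene AttA in 412KD (edgeR log2 fold change 2.78 ± 0.69, DESeq2 adjusted p = 7.07e-05, edgeR adjusted p = 0.256). In RooKD it called AttA again (1.85 ± 0.69, DESeq2 adjusted p = 0.0231, edgeR adjusted p = 0.358), with the diptericin gene DptB (−0.92 ± 0.19, DESeq2 adjusted p = 0.000405) and the bomanin gene BomBc1 (−1.40 ± 0.41, DESeq2 adjusted p = 0.00985) lower (edgeR adjusted p = 0.135 and 0.256). The other attacin genes were not called. Their log2 differences from the scramble mean in 412KD were −2.57 to 0.49 (AttB), −2.53 to 0.45 (AttC) and −1.97 to 0.28 (AttD). Those of AttA were 0.74 to 3.52. In RooKD AttB, AttC and AttD were at −0.83 to 0.32, −0.14 to 0.04 and −1.94 to −0.66. No source read here tells how reads that match more than 1 gene were counted. The median log2 fold change of the effectors was −0.27 in 412KD and −0.48 in RooKD. The effector median was 0.24 in 412KD without replicate 3 and −0.50 in RooKD without replicate 1.

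All components but dl and pirk overlap another gene or repeat in the reference annotation, and no source read here tells whether the counting used strand. Exons of cact, key, imd and Dif meet exons of fzy, CG3589, GstE9 and CG15141 on the other strand over 62, 29, 40 and 252 bases, and spz holds CG43935 within it. For cact the share such reads could take is small, since fzy had 0.114% to 6.79% as many reads as cact. The cell division gene fzy was itself highest in the libraries with the highest germline medians, at 366 reads in 412KD replicate 3 and 246 in RooKD replicate 1. GstE9 had 405% to 753% as many reads as imd, and imd also shares 1573 bases with Dp1 on the other strand, without a shared exon, so the imd level is uncertain to that extent. Rel lies within the span of Nmdmc on the same strand without meeting its exons, and Nmdmc had 3.78% to 9.34% as many reads as Rel.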

How the data were processed

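The authors deposited 1 table for each hairpin, both with the scramble libraries, holding 14166 and 14078 features, 13765 of them shared. The submitters' processing notes name HISAT2, DESeq2 and the build dm6, without versions. No source read here names the counting tool, its annotation or its use of strand. Every test started from the raw read counts that the authors deposited. The deposited normalized signal is the count divided by 1 size factor per library, and was not used. The deposited FPKM values, which the authors divided by gene length and library size, served to compare levels between genes. The log2 fold changes and p-values of the authors' deposited table come from their comparison with scramble.

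Counts were tested with edgeR 4.0.16 (R 4.3.3; TMM, filterByExpr, robust quasi-likelihood F test, Benjamini-Hochberg over all genes tested, threshold 0.05). The fits against scramble held 6 libraries each, and that of 412KD against RooKD held 9. Library CPM values use TMM over the 9 libraries. SEs are the log2 fold change divided by the square root of F, and 95% intervals use its degrees of freedom. DESeq2 1.42.0 was an alternative, as were other normalizations, no filter, other libraries in the fit, a replicate block and each library left out. Libraries within a group were further apart than counting noise allows (chi-square per degree of freedom 20.9 to 164). Low-complexity features, 6 in all with 0.00191% to 0.244% of reads, were left out, and 5 symbols turned into dates were restored by identifier. Genes were matched by name or, for 8 list members, through the reference symbols or in another letter case. The tests were tried on simulated data first. For 412KD against scramble, RooKD against scramble and 412KD against RooKD, 48, 49 and 51 of 100 genes with a log2 change of 1 were called. With a log2 change of 2 it was 91, 86 and 86 of 100. A gene that was not called may thus still have changed.

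The members and lists were chosen with earlier results of these data known. All 10 members are named. Of the other pathway and effector lists, genes called by edgeR or DESeq2 in a comparison with scramble are named, at most 4 a list. For the 3 members with the largest variance, the 3 genes most like each are named, among genes with a mean of at least 50 reads. SPE, pll, fzy, BomS3 and PGRP-SC1b were named after their values had been seen. The cell type lists (germline, hemocyte, fat body, gut, flight muscle) are given as levels by library. With all libraries edgeR called none of their genes against scramble, but DESeq2 called some. In 412KD it called 5 germline genes and 4 gut genes as higher and the hemocyte gene NimC1 as lower. In RooKD it called Yp2, Yp3 and 2 gut genes as higher and Act88F as lower. The smallest p of an exact permutation test of 3 against 3 libraries is 0.1. Overlaps with other genes come from the reference annotation, in which all 10 members have the table's start and end.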

Additional observations from a re-analysis of the deposited data

How the results depend on the processing

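No component passed the threshold in any edgeR fit run, and members called stayed at 0 with each library left out. The exception by DESeq2 was nec in 412KD against scramble without 412KD replicate 3, which made 1 member called; that fit was added after the data had been seen. Of 430 fold changes of components under alternatives, 395 kept direction and call, 34 turned, 1 became called, and none that turned was called. Counts over all genes moved more. In 412KD against scramble 2 genes were called, against 337 by DESeq2, 531 by DESeq2 without 412KD replicate 3, 15 with no filter on low counts, 14 with all 9 libraries in the fit, and 0 to 105 with 1 library left out. In RooKD against scramble 11 were called, against 347 by DESeq2, 467 by DESeq2 without RooKD replicate 1, 26 with no filter, and 0 to 44 with 1 library left out. In 412KD against RooKD 10 were called, against 72 by DESeq2, 4 with the 6 hairpin libraries alone, 70 without 412KD replicate 3 and RooKD replicate 1 (420 by DESeq2), and 2 to 22 with 1 library left out. The causes were not tested.

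With a replicate block the counts were 0 in 412KD against scramble, 10 in RooKD against scramble and 4 in 412KD against RooKD, and no component was called. Deviations of same-numbered libraries correlated at 0.09 to 0.12, −0.03 to 0.24 and −0.21 to 0.39 in these comparisons. Those of differently numbered libraries ran from −0.11 to 0.03, −0.25 to 0.21 and −0.50 to 0.37. In 412KD against scramble every same-numbered value was above the others, and in the other comparisons the ranges overlapped. The labels state no pairing, so the main fits left it out, but it was not excluded.

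The largest value that turned was nec in 412KD against RooKD, from −0.15 to 0.32. In 412KD against scramble these were spz under upper quartile normalization (−0.0097) and, by DESeq2 without 412KD replicate 3, dl (0.091), imd (0.069) and key (0.013). In RooKD against scramble imd was −0.023 under upper quartile normalization, −0.0071 with no filter and −0.0059 with all 9 libraries. In 412KD against RooKD without both libraries nec was 0.32, Rel 0.115 and key 0.089 by edgeR, and 0.32, 0.11 and 0.086 by DESeq2. With 1 library left out, nec ranged from 0.027 to 0.49 and pirk from −0.55 to −0.066 in 412KD against scramble, and nec from 0.17 to 0.52 and pirk from 0.030 to 0.50 in RooKD against scramble, without turning. 412KD against scramble ranged from −0.12 to 0.14 for spz, −0.34 to 0.086 for dl, −0.18 to 0.064 for imd and −0.35 to 0.0087 for key. RooKD against scramble ranged from −0.11 to 0.079 for imd, −0.20 to 0.073 for key and −0.032 to 0.10 for Dif. 412KD against RooKD ranged from −0.11 to 0.31 for dl, −0.33 to 0.12 for nec, −0.25 to 0.18 for Rel, −0.15 to 0.062 for imd and −0.28 to 0.077 for key. With 3 libraries a group, these data leave intervals of the widths given for each gene.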
